A study of Mus musculus with 12 samples.

Results

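The translation initiation factors (eIFs, gene symbols Eif1 to Eif6) and elongation factors (eEFs, Eef1 and Eef2) were followed in 2 clonal mouse fibroblast lines before and after cartilage differentiation. Every symbol of the normalized count table that begins with Eif or Eef and a digit from 1 to 6 was taken, and the RefSeq transcript rows of a symbol were summed. This gave 66 members with 247 rows, of 35976 symbols with 106518 rows. Of these, 36 were tested, their mean over all 12 libraries being 10 or more. The other 30 were counted too low to test, among them 7 at 0 in all 12 libraries.

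Both lines, P3D8 and P3E3, came from single cells of lacZ+ fibroblasts of the third phalanx (P3) of an adult mouse digit, so each line is 1 clone, and all cultures were at passage 6. Monolayer cultures grew on fibronectin to 80% confluency in 2% serum with EGF and PDGF (10 ng/ml each) and with LIF at 0.5 ng/ml, and without BMP. Cartilage cultures (P3D8/BMP9 and P3E3/BMP9) were aggregated in suspension with 50 ng/ml BMP2 for 4 days and then received 50 ng/ml BMP9 for 14 days, also with 2% serum. Each of the 4 groups had 3 libraries from independent cultures. The effects of BMP, of the 3D culture and of removing EGF, PDGF and LIF cannot be told apart. The cell line entry of 4 libraries (replicate 3 of both monolayer groups and replicate 1 of both cartilage groups) named the other clone than the title. They were grouped by title. Libraries of a titled group correlated at r = 0.985 to 0.993 across 5294 symbols, but r between the clones was not computed, so this cannot tell title from entry. The member Eif4e3 was at 6.21 in P3D8 monolayer replicate 3 (1.96 and 4.50 in replicates 1 and 2) and 62.1 in P3E3 monolayer replicate 3 (67.6 and 75.3). In cartilage replicate 1 it was at 27.6 in P3D8 (32.1 and 22.9 in replicates 2 and 3) and 142 in P3E3 (122 and 145). In this member each of the 4 libraries thus lay with the other libraries of its titled group.

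Translation starts when eIF2, carrying the initiator tRNA, joins the small ribosomal subunit together with eIF1, eIF1A, eIF5 and the large scaffold eIF3, and when the cap-binding complex eIF4F brings in the mRNA. eIF2 is recharged by its exchange factor eIF2B, and stress kinases block this step by phosphorylating eIF2. During elongation eEF1A delivers aminoacyl-tRNA, the eEF1B complex recharges eEF1A, and eEF2 moves the ribosome along the mRNA. Several of these factors, like the ribosomal proteins, are made from TOP mRNAs, which begin with a cytosine and a run of pyrimidines and whose translation depends on mTORC1, a growth factor sensor.

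The libraries held 7269748 to 8662298 counted reads. The members together took 8.69% to 8.89% of these reads in P3D8 monolayer and 2.74% to 2.98% in P3D8/BMP9. In P3E3 their share was 6.77% to 7.16% in monolayer and 5.08% to 5.27% in cartilage. The share was thus lower in the cartilage than in the monolayer of both clones, with no overlap between the groups. The 10 most counted symbols of each library took 27.7% to 29.1% of reads in P3D8/BMP9, 21.0% to 21.7% in P3E3/BMP9, 12.4% to 13.3% in P3D8 monolayer and 9.86% to 10.4% in P3E3 monolayer. The values below are counts normalized by the DESeq2 size factor of each library and are not shares of reads. Normalized counts summed to 4.43e+06 to 4.97e+06 in the monolayer libraries and to 6.31e+06 to 7.03e+06 in the cartilage libraries. An equal share of reads thus gives a higher normalized count in cartilage. In bulk RNA, fewer cells of a type and less RNA per cell cannot be told apart.

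**Figure D1:**
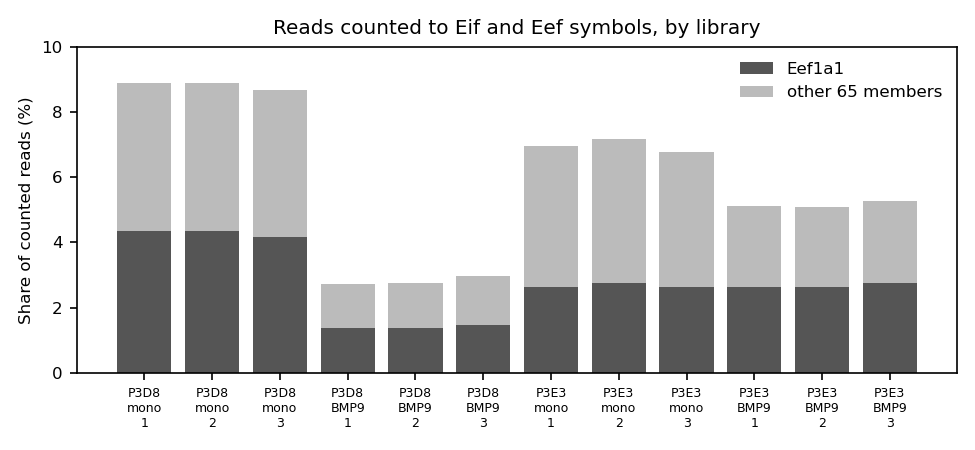
Share of counted reads (%) of each of the 12 libraries that fell to Eef1a1 (dark bars) and to the other 65 members (light bars), with replicates 1 to 3 of each group side by side. The 3 P3D8/BMP9 libraries, at 2.74% to 2.98%, lie below all others.

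The cartilage markers summed to 6075 to 6564 in P3D8/BMP9 and 19516 to 21820 in P3E3/BMP9, against 724 to 921 in the monolayers. Of the 8 that could be tested, 5 (Acan, Chad, Col11a1, Col9a1 and Epyc) were at 0 in all 6 monolayer libraries, and Col2a1 and Col9a2 were near 0, so these passed the minimum through the cartilage libraries and had to differ. Sox9, the transcription factor of cartilage fate, was counted in every group and was 4.97-fold higher in P3D8/BMP9 and 5.64-fold higher in P3E3/BMP9 than in monolayer. The 5 tested of 10 proliferation markers were lower in the cartilage of both clones (sums of 3224 to 4863 in P3D8 monolayer, 978 to 1084 in P3D8/BMP9, 3533 to 4694 in P3E3 monolayer and 1027 to 1188 in P3E3/BMP9). The fibroblast markers, mostly collagen mRNAs, moved with the cartilage state too, with sums of 131657 to 158574 in P3D8 monolayer, 1081110 to 1148360 in P3D8/BMP9, 65330 to 67285 in P3E3 monolayer and 598343 to 693503 in P3E3/BMP9. Of the 10 in this list, Col1a1 was higher in the cartilage of both clones (log2FC 3.81 in P3D8 and 3.76 in P3E3), Pdgfra was lower in both (log2FC -1.10 and -1.87), and Postn and Fap were at 0 in all libraries. The part of these lists in the changes of the translation factors was not tested. Keratinocyte markers summed to at most 28.9 and markers of macrophages and blood to at most 65.6 in any library. Eif4a1 and Eif4a2, helicase genes that every cell uses, were also at 0 in all libraries, with 2 and 11 transcript rows. A count at or near 0 thus does not show that a gene was not expressed. The low sums, and the 0 of Postn and Fap, therefore do not show that these cell types or mRNAs were absent.

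In P3D8/BMP9, 28 of the 36 tested members were lower than in P3D8 monolayer, where 38.7% of all 5294 tested symbols were called lower (limma on log2(value + 1), Benjamini-Hochberg adjusted p below 0.05). Only 4 were higher, against 37.6% of all symbols. The median log2 fold change (log2FC) of the tested members was -1.004, against -0.03 over all tested symbols. In P3E3/BMP9, 22 members were lower than in P3E3 monolayer (38.1% of all symbols) and 8 were higher (41.6%), with a median of -0.46 against 0.07. With the study's threshold of an absolute log2FC of at least 1.5, 7 members fell in P3D8 (10.2% of all symbols) and 2 rose (18.9%), and in P3E3 3 fell (12.3%) and 1 rose (21.4%). The 2 responses, which share no libraries, had 19 members lower in both (52.8% of the tested members, against 29% of all symbols) and 4 higher in both (11.1% against 31.2%). A further 4 members, Eef1a1, Eef1b2, Eif3h and Eif3i, were lower in P3D8/BMP9 and higher in P3E3/BMP9 in normalized counts, a class that held 3.38% of all symbols.

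**Figure D2:**
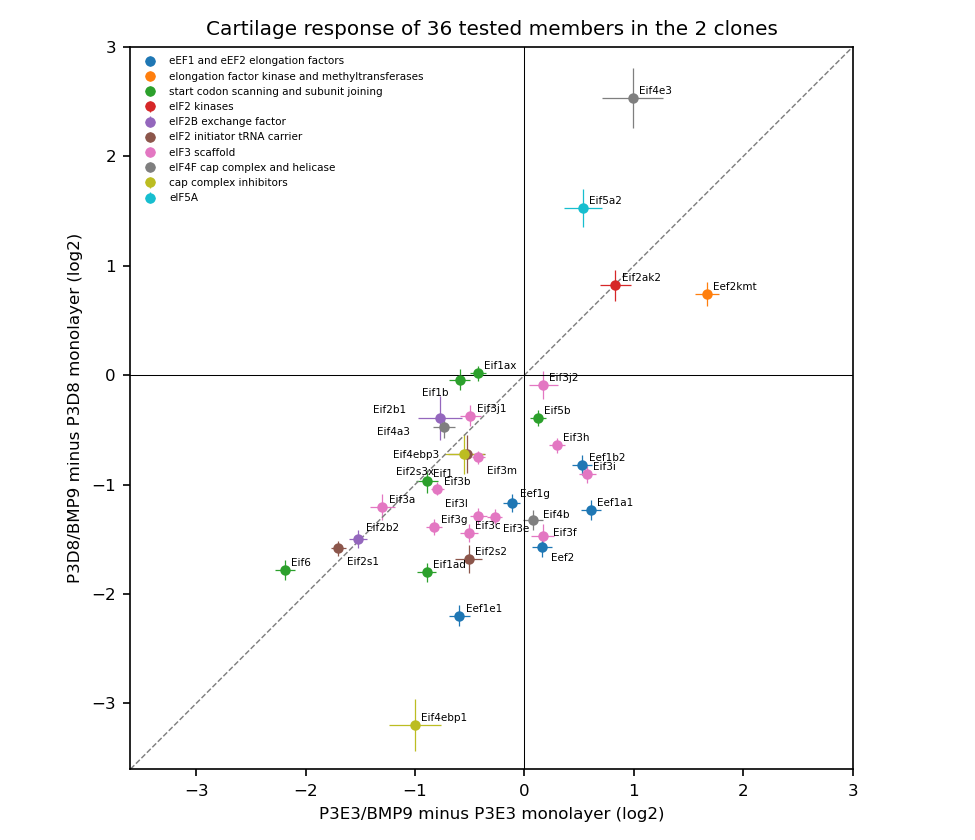
Cartilage response of the 36 tested members, as log2FC (± SE) of P3D8/BMP9 against P3D8 monolayer (vertical axis) and of P3E3/BMP9 against P3E3 monolayer (horizontal axis), with points coloured by role and a dashed line where both responses are equal. Eef1a1, Eef1b2, Eif3h and Eif3i lie below 0 on the P3D8 axis and above 0 on the P3E3 axis, and Eif6, Eif2s1 and Eif2b2 lie low on both.

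Elongation factors showed the clearest contrast between the clones. Eef1a1 (chr9:78478453-78481724, GRCm38), which encodes eEF1A1 and was the most counted member, had normalized counts of 212181, 216908 and 202189 in P3D8 monolayer, 86662, 86788 and 94932 in P3D8/BMP9, 120109, 125179 and 116752 in P3E3 monolayer and 174875, 183155 and 193622 in P3E3/BMP9. In these counts all 3 cartilage libraries were below all monolayer libraries in P3D8 and above them in P3E3. As a share of counted reads, Eef1a1 took 4.16% to 4.37% in P3D8 monolayer and 1.36% to 1.46% in P3D8/BMP9. In P3E3 its share was 2.64% to 2.76% in both groups, so its rise there was in normalized counts only. Shares of single members other than Eef1a1 were not computed. In P3E3 normalized counts Eef1a1 rose 1.52-fold, and Eef1b2 (1.44-fold), Eif3i (1.49-fold) and Eif3h (1.23-fold) rose by less. The rises of these 3 in P3E3 are thus not shown to be rises in share of reads. The log2FC was -1.23 ± 0.09 (SE, adjusted p = 1.69e-08) in P3D8 and 0.61 ± 0.09 (adjusted p = 2.77e-05) in P3E3, and the responses differed by -1.84 ± 0.13 (adjusted p = 1.53e-07, test of the difference itself). P3D8 had 1.74 times the P3E3 level in monolayer, whereas its level in cartilage was lower by a factor of 2.06.

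Eef2, the translocase (chr10:81176631-81182509, GRCm38), was at 84107, 82265 and 83831 in P3D8 monolayer, 26817, 26706 and 31064 in P3D8/BMP9, 53434, 56725 and 46932 in P3E3 monolayer and 56641, 57064 and 61833 in P3E3/BMP9. The P3D8 cartilage values were 2.97-fold below the monolayer values (log2FC -1.57 ± 0.09, adjusted p = 1.39e-09), and the P3E3 groups overlapped (0.16 ± 0.09, adjusted p = 0.121). Eef1b2, the exchange subunit of eEF1B, fell from a mean of 8380.0 ± 579 (SD, n = 3) to 4750.4 ± 429 in P3D8 (log2FC -0.82) and rose from 8501 ± 761 to 12262 ± 887 in P3E3 (0.53). Eef1g, a structural eEF1B subunit, was at 17176 ± 379 and 7662 ± 577 in P3D8 monolayer and cartilage, and at 23100.4 ± 1291 and 21328 ± 1507 in P3E3, where the groups overlapped (log2FC -0.12, adjusted p = 0.193). The responses of these 3 genes differed by -1.73 (Eef2), -1.35 (Eef1b2) and -1.05 (Eef1g).

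Eef1e1, a small scaffold protein of the tRNA synthetase complex, was lower in the cartilage of both clones but more so in P3D8. It was at 900.3, 886 and 931 in P3D8 monolayer, 186, 177 and 229 in P3D8/BMP9, 801, 739 and 835 in P3E3 monolayer and 517, 537 and 517 in P3E3/BMP9, with a log2FC of -2.20 ± 0.09 in P3D8 and -0.59 ± 0.09 in P3E3. Thus all 5 tested genes of the eEF1 and eEF2 list, Eef1e1 included, were lower in P3D8/BMP9, against 38.7% of all symbols (median log2FC -1.23). Of the same 5 in P3E3, 2 were higher, close to the 41.6% of all symbols, 1, Eef1e1, was lower (38.1%) and 2 were not called (median 0.16). Eef2kmt, whose human counterpart methylates eEF2, went the other way and rose from 137 ± 7.31 to 230.4 ± 11.1 in P3D8 (log2FC 0.74 ± 0.11) and from 104 ± 9.14 to 331 ± 28.2 in P3E3 (1.67 ± 0.11), where all cartilage libraries exceeded all monolayer libraries. Its rise was smaller in P3D8 by 0.92 on the log2 scale (difference -0.92 ± 0.15, adjusted p = 0.000224).

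Eef1a2, the eEF1A form of muscle and nerve, was too low to test. It was at 0 in all 6 monolayer libraries and at 9.70, 7.42 and 11.9 in P3D8/BMP9 (37 reads) and 6.13, 7.44 and 4.29 in P3E3/BMP9 (22 reads). Set against 3 reads over a monolayer group, its level was at least 15.1-fold higher in P3D8/BMP9 and at least 9.89-fold higher in P3E3/BMP9, counting error only. Of 6 muscle markers, 2 could be tested, and the list summed to 787 to 896 in P3D8/BMP9 and 519 to 630.4 in P3E3/BMP9, against 165 to 239 and 295 to 487 in the monolayers; its part in the Eef1a2 values was not tested.

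**Figure D3:**
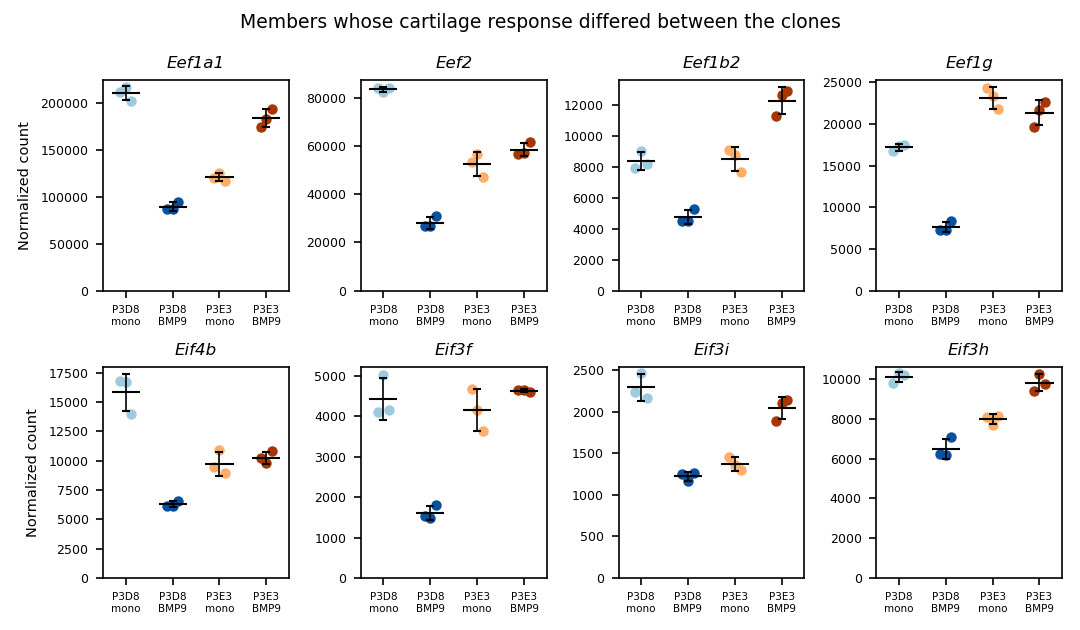
Normalized counts of 8 members in each library (points), with the group mean (line) and SD (bar, n = 3), on linear axes that start at 0. Eef1a1, Eef1b2, Eif3i and Eif3h fell in P3D8/BMP9 and rose in P3E3/BMP9, whereas Eef2, Eef1g, Eif4b and Eif3f fell in P3D8/BMP9 and were not called in P3E3.

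The eIF3 scaffold was the best covered complex, with 12 of its 14 symbols tested. Of these, 11 were lower in P3D8/BMP9 than in P3D8 monolayer, against 38.7% of all symbols (median log2FC -1.12). In P3E3, 8 were lower (38.1% of all symbols), 2 higher (41.6%) and 2 not called (median -0.42). The subunits of the complex thus did not all move the same way in that clone. Eif3f (chr7:108934415-108941942, GRCm38), an MPN-domain subunit, was at 4112, 5039 and 4168 in P3D8 monolayer, 1521, 1489.8 and 1799 in P3D8/BMP9, 4686, 4151 and 3639 in P3E3 monolayer and 4659, 4660.4 and 4607 in P3E3/BMP9. The 3 P3D8/BMP9 libraries were far below the other 9, which lay between 3639 and 5039 (responses of -1.47 ± 0.10 and 0.17 ± 0.10, difference -1.63 ± 0.15, adjusted p = 1.43e-06).

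Eif3i, a WD-repeat subunit, was at 2239, 2472 and 2171 in P3D8 monolayer, 1246, 1163 and 1259.6 in P3D8/BMP9, 1462, 1355 and 1303 in P3E3 monolayer and 1892, 2105 and 2139.7 in P3E3/BMP9. Its log2FC was -0.91 ± 0.08 in P3D8 and 0.57 ± 0.08 in P3E3, with no overlap in either clone. Eif3h, the partner MPN-domain subunit of Eif3f, moved less, from 10116 ± 272 to 6502 ± 493 in P3D8 (-0.64) and from 7991 ± 249 to 9833 ± 429 in P3E3 (0.30). Both genes were higher in P3D8 than in P3E3 in monolayer (by 0.74 and 0.34) and lower in cartilage (log2FC -0.74 and -0.60).

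Eif3a, the largest eIF3 subunit, fell in both clones with no called difference. It was at 7960.2, 6441 and 7568 in P3D8 monolayer, 3246, 3232 and 3009.7 in P3D8/BMP9, 7743, 9841 and 9106 in P3E3 monolayer and 3416, 3175 and 4312 in P3E3/BMP9 (log2FC -1.21 ± 0.12 and -1.30 ± 0.12; the test of the difference gave 0.09 ± 0.17, adjusted p = 0.683). Eif3b, the scaffold of the subunits that reach the mRNA entry site, fell by 1.04 in P3D8 and by 0.80 in P3E3 on the log2 scale. A further 5 subunits fell in both clones and further in P3D8. Eif3c had a log2FC of -1.44 in P3D8 and -0.51 in P3E3, Eif3e -1.30 and -0.27, and Eif3g -1.39 and -0.82. Eif3l had -1.29 and -0.42, and Eif3m -0.75 and -0.42. The difference was called for each of these 5, and for Eif3b (-0.24, adjusted p = 0.0258) it was lost under TMM scaling (-0.17, adjusted p = 0.0775), with edgeR on the recovered reads (-0.17, adjusted p = 0.114), with no minimum mean (adjusted p = 0.0826), without the 4 libraries of conflicting entries (-0.26, adjusted p = 0.11) and without P3D8/BMP9 replicate 1 or 2, P3E3 monolayer replicate 2 or P3E3/BMP9 replicate 3 (-0.24 to -0.21).

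Eif3j1 and Eif3j2, near-identical copies of the loosely bound subunit eIF3j between which the counting could split reads, were both higher in P3E3 than in P3D8. Eif3j1 was at 527 ± 27.5 in P3D8 monolayer, 408 ± 39.1 in P3D8/BMP9, 914 ± 86.1 in P3E3 monolayer and 647 ± 40.2 in P3E3/BMP9, and Eif3j2 at 120.1 ± 24.4, 112 ± 6.16, 233 ± 4.38 and 263 ± 16.6. Eif3j2 was the only tested member called in neither cartilage response (log2FC -0.09 and 0.17).

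Per kilobase of transcript, the eIF3 subunits differed widely in level within a group. In P3D8 monolayer Eif3h stood highest at 7812 ± 210.1 normalized counts per kb, followed by Eif3e at 5357 ± 183, and Eif3j2 was lowest at 50.5 ± 10.3. In P3E3/BMP9 Eif3h was at 7593 ± 331 and Eif3e at 3315 ± 169.6 per kb. The subunits of a complex were therefore not counted at equal levels, also with length taken into account.

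Of the factors of scanning and subunit joining, Eif6 had the largest fall of the 36 tested members in P3E3. Eif6 (chr2:155819837-155826925, GRCm38), which keeps the large ribosomal subunit from joining early and takes part in its assembly, was at 2244, 2360.5 and 2283 in P3D8 monolayer, 673, 631 and 700.2 in P3D8/BMP9, 4559, 4216 and 3561 in P3E3 monolayer and 908, 951 and 838 in P3E3/BMP9. Cartilage was far below monolayer in each clone (log2FC -1.78 ± 0.09 and -2.19 ± 0.09), and here the fall was larger in P3E3 (difference 0.41 ± 0.12, adjusted p = 0.0158). The monolayers already differed, with 1.78 times more Eif6 in P3E3.

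Eif1, the guardian of start codon choice, fell by similar amounts, from 10471 ± 747 to 5378 ± 830.1 in P3D8 (log2FC -0.97) and from 14822 ± 884 to 8008 ± 655 in P3E3 (-0.89). Its paralog Eif1b had like values in the P3D8 groups (504 ± 37.2 and 491 ± 30.9) and fell from 799 ± 54.7 to 531 ± 62 in P3E3 (-0.59 ± 0.10). Eif1ax, which encodes eIF1A, had the same pattern, with 1300.3 ± 81.8 and 1314 ± 66.6 in P3D8 and a fall from 1912 ± 51.6 to 1427 ± 77.4 in P3E3 (-0.42 ± 0.07). The difference of responses was called for Eif1b (0.55) and Eif1ax (0.44). Eif1ad, whose human counterpart acts in small subunit maturation, was at 1232 in both monolayers and fell to 353 ± 23.5 in P3D8/BMP9 and 665 ± 57.7 in P3E3/BMP9 (-1.80 and -0.89). Eif5b, the GTPase of subunit joining, moved little (log2FC -0.39 ± 0.07 in P3D8 and 0.13 ± 0.07, adjusted p = 0.135, in P3E3).

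The subunits of eIF2 were all lower in cartilage, but by different amounts. Eif2s1, the alpha subunit that the stress kinases phosphorylate, was at 2859, 2664 and 2887 in P3D8 monolayer, 951, 943 and 915 in P3D8/BMP9, 3282, 3056 and 3584 in P3E3 monolayer and 1024, 997 and 1024 in P3E3/BMP9. This was a fall of nearly equal size, 2.99-fold in P3D8 and 3.25-fold in P3E3. Eif2s2, the beta subunit, was at 3915, 3836 and 3778 in P3D8 monolayer, 1090.4, 994 and 1590.3 in P3D8/BMP9, 5334, 5447 and 5068 in P3E3 monolayer and 3848, 3772 and 3510.3 in P3E3/BMP9. It fell 3.20-fold in P3D8 but 1.42-fold in P3E3, and the responses differed (-1.17 ± 0.18, adjusted p = 0.000123).

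Eif2s3x, the X-linked gamma subunit, was at 2179 ± 268, 1324 ± 179.5, 2119.8 ± 294 and 1501 ± 433 in the same order of groups, with a log2FC of -0.72 ± 0.17 in P3D8 and of -0.53 ± 0.17 in P3E3, where the groups overlapped and the call was lost without P3E3/BMP9 replicate 2 (-0.38, adjusted p = 0.0652) or without the 4 libraries of conflicting entries (-0.36, adjusted p = 0.194). Per kilobase, P3E3/BMP9 held 298 ± 4.57 of the alpha, 1460 ± 69.8 of the beta and 411 ± 119 of the gamma subunit, against 275 ± 5.59, 482 ± 126 and 363 ± 49.2 in P3D8/BMP9. The cartilages thus differed in the beta subunit (log2FC -1.63 ± 0.13, adjusted p = 2.11e-07), with adjusted p = 0.177 for the alpha and 0.487 for the gamma subunit.

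Eif2b2, the beta subunit of the exchange factor, was at 1728, 1842 and 1809 in P3D8 monolayer, 612, 592 and 703 in P3D8/BMP9, 1864, 1686 and 1825 in P3E3 monolayer and 660.3, 634 and 578 in P3E3/BMP9. The clones had nearly the same values in each state, with a log2FC of -1.50 ± 0.08 and -1.52 ± 0.08. Eif2b1, the alpha subunit, had low counts spread over 2 rows and was called lower in P3E3 only (log2FC -0.77 ± 0.20, against -0.39 ± 0.20 with adjusted p = 0.0922 in P3D8); the difference had an adjusted p of 0.282.

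Eif2ak2, which encodes the double-stranded RNA kinase PKR and was the only tested eIF2 kinase, rose in both clones. Its values were 106, 129 and 125 in P3D8 monolayer, 192, 232 and 215 in P3D8/BMP9, 83.9, 87.7 and 112 in P3E3 monolayer and 151, 169 and 185 in P3E3/BMP9. The rise was 1.77-fold in P3D8 and 1.78-fold in P3E3 (adjusted p = 0.000106 and 8.28e-05).

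At the cap complex, Eif4ebp1 (chr8:27260327-27275656, GRCm38), the mTORC1-controlled inhibitor of the cap-binding protein eIF4E, had the largest fall of the 36 tested members in P3D8. It was at 7914, 8538 and 8231 in P3D8 monolayer, 691, 677 and 1533 in P3D8/BMP9, 5789, 5548 and 4374 in P3E3 monolayer and 2887, 2737 and 2219 in P3E3/BMP9. Replicate 3 of P3D8/BMP9 was well above the other 2 of its group and still below every other library. The log2FC was -3.20 ± 0.24 in P3D8 (-3.586 to -2.997 with 1 library left out) and -1.0 ± 0.24 in P3E3, and the responses differed by -2.20 ± 0.33 (adjusted p = 0.000107). Eif4ebp3, a less counted inhibitor of the same kind, fell by 0.72 and 0.55 on the log2 scale; the difference had an adjusted p of 0.627. Its call in P3E3 was lost without P3E3 monolayer replicate 1 (-0.47, adjusted p = 0.0531) or P3E3/BMP9 replicate 3 (-0.37, adjusted p = 0.0678), and the calls in both clones without the 4 libraries of conflicting entries (-0.65 and -0.58, adjusted p = 0.0529 and 0.0763).

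Eif4b, which stimulates the helicase eIF4A, was at 16765, 16675 and 13990.2 in P3D8 monolayer, 6111, 6168 and 6574 in P3D8/BMP9, 9422, 10887 and 8915 in P3E3 monolayer and 10219, 9767 and 10779 in P3E3/BMP9. It fell in P3D8 (log2FC -1.33 ± 0.09) and the P3E3 groups overlapped (0.08 ± 0.09, adjusted p = 0.438). Eif4a3, a helicase of the exon junction complex, fell in both (-0.47 and -0.74).

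Eif4e3 (chr6:99621879-99692873, GRCm38), a cap-binding relative of eIF4E, separated the clones in both states. It was at 1.96, 4.50 and 6.21 in P3D8 monolayer, 27.6, 32.1 and 22.9 in P3D8/BMP9, 67.6, 75.3 and 62.1 in P3E3 monolayer and 142, 122 and 145 in P3E3/BMP9. No 2 groups overlapped, and the order from low to high was P3D8 monolayer, P3D8/BMP9, P3E3 monolayer and P3E3/BMP9. Cartilage was higher in both clones (log2FC 2.53 ± 0.28 and 0.99 ± 0.28), and P3D8 was lower than P3E3 in monolayer (log2FC -3.82 ± 0.28) and in cartilage (-2.28 ± 0.28). It was the only tested member with a group mean under 10; the other 35 reached this in every group.

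Eif5a2, a tissue-restricted form of eIF5A, which helps ribosomes past difficult peptide bonds, was at 98.5, 77.1 and 90.7 in P3D8 monolayer, 266, 270.3 and 235 in P3D8/BMP9, 179.8, 165 and 281 in P3E3 monolayer and 306, 259 and 321 in P3E3/BMP9. It rose 2.88-fold in P3D8. In P3E3 the groups overlapped through monolayer replicate 3, and the log2FC of 0.53 ± 0.17 (adjusted p = 0.0119) was no longer called without P3E3 monolayer replicate 1 (0.45, adjusted p = 0.0511) or replicate 2 (0.39, adjusted p = 0.0674).

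**Figure D4:**
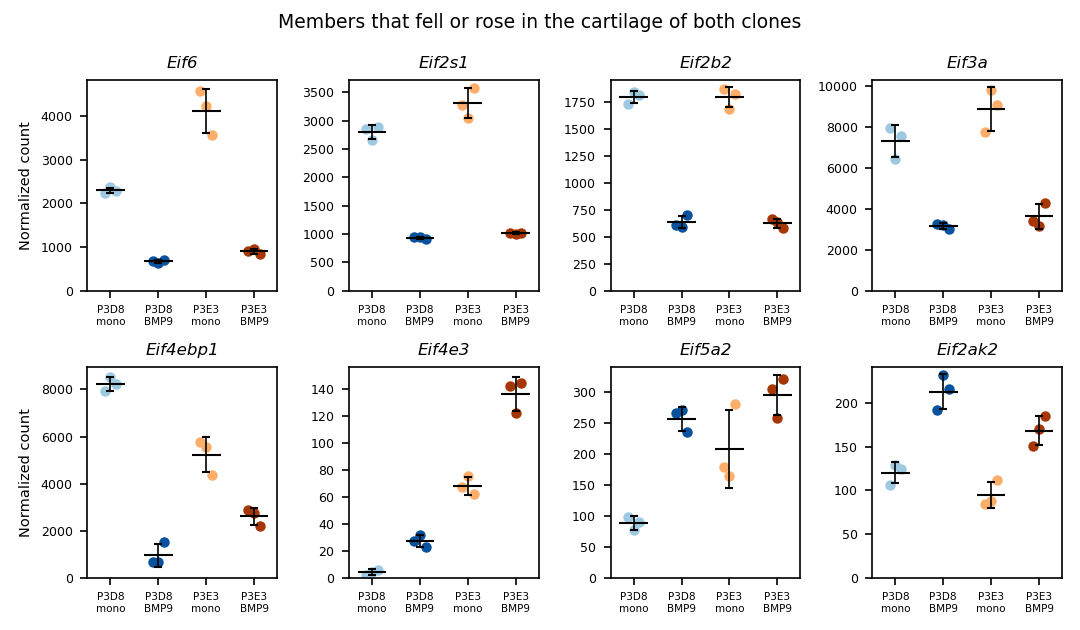
Normalized counts of 8 members in each library (points), with the group mean (line) and SD (bar, n = 3), on linear axes that start at 0. Eif6, Eif2s1, Eif2b2, Eif3a and Eif4ebp1 were lower and Eif4e3, Eif5a2 and Eif2ak2 higher in the cartilage of both clones.

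Between the cartilages, 24 members were lower in P3D8/BMP9 than in P3E3/BMP9, where 28.3% of all symbols were called lower, and the median log2FC was -0.60 against -0.03. No tested member was called higher (22.1% of all symbols). By an unadjusted p below 0.05 it was 1, Eif2ak2 (log2FC 0.34, adjusted p = 0.0618), which edgeR called with an adjusted p of 0.0191. The study lists Eif4e2 and Eif4g1 as higher in P3D8 cartilage than in P3E3 cartilage. Here both were under the minimum mean and not tested (group means of 6.83 and 14.2 in P3D8/BMP9 and 1.87 and 3.62 in P3E3/BMP9). With the study's threshold, 4 members were lower (3.51% of all symbols). Of the 24 lower members, 8 were also lower in P3D8 than in P3E3 in monolayer, 9 were higher in monolayer and 7 were not called there. Over all members the monolayers showed no lean to one clone, with 10 members higher in P3D8 (26.6% of all symbols), 13 lower (23.2%) and a median of -0.0023 (0.0049 under TMM scaling). The response of P3D8 minus that of P3E3 was called lower for 20 members (27.6% of all symbols) and higher for 5 (18.6%).

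**Figure D5:**
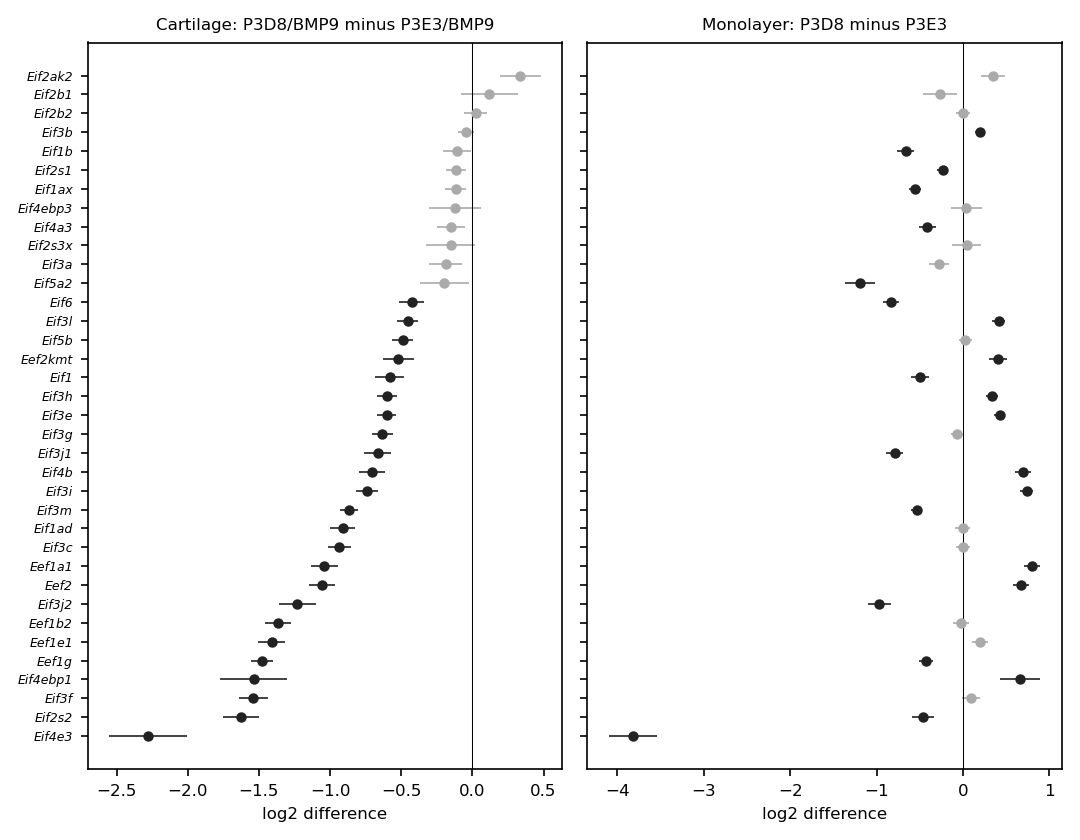
Log2 difference (± SE) of P3D8 minus P3E3 for the 36 tested members in cartilage (left) and in monolayer (right), ordered by the cartilage value, with dark points called at an adjusted p below 0.05. In cartilage 24 members lie at called negative values, whereas in monolayer 10 lie at called positive and 13 at called negative values.

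The members known as TOP mRNAs from mammalian work were Eef1a1, Eef1b2, Eef1d, Eef1g, Eef2, Eif3e, Eif3f, Eif3h and Eif4b, of which all but Eef1d were tested. In P3D8 all 8 were lower in cartilage (38.7% of all symbols), with a median log2FC of -1.27. In P3E3 3 were higher, close to the 41.6% of all symbols, 1 was lower (38.1%) and 4 were not called, with a median of 0.16. The difference was called lower for all 8 (27.6% of all symbols), with a median of -1.38. The 28 tested members outside this list had medians of -0.83 in P3D8 and -0.54 in P3E3. Their difference was called lower for 12 (27.6% of all symbols) and higher for 5 (close to the 18.6% of all symbols), with a median of -0.18.

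Of the ribosomal protein mRNAs, also of the TOP class, 52 of 84 symbols were tested. In P3D8/BMP9 48 of the 52 were lower than in its monolayer (38.7% of all symbols), with a median of -1.004. In P3E3 25 were higher, close to the 41.6% of all symbols, and 6 were lower (38.1% of all symbols), with a median of 0.17 against 0.07. Of 6 other tested TOP mRNAs all were lower in P3D8, and in P3E3 2 were higher and 3 lower, against the same shares of all symbols. Among them Npm1, which encodes the nucleolar protein nucleophosmin, fell in both clones (log2FC -2.20 and -2.48).

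The region around the annotated start was searched in RefSeq promoters (GRCm38.p6, 250 bases before to 50 after the start), which held 27 of the 36 tested members. A C followed by at least 7 C or T, on the sense strand within 50 bases of the start, was found in 11 of the 27 (40.7%), in 32% of all genes with a promoter and in 29.9% of the tested symbols. Of 5 TOP members with a promoter, 2 had such a run. Windows of 30 bases follow for these 2, Eef1a1 and Eif3f, and for Eif3l and Eif2s3x, the other members in which a run begins 1 to 5 bases before the annotated start, with the run in capitals, 5′ to 3′.
Eef1a1 (chr9:78481710-78481739, minus strand): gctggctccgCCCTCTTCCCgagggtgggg
Eif3f (chr7:108934403-108934432, plus strand): gttctaggCTCTCTCTCTTTCTCggcaaga
Eif3l (chr15:79075207-79075236, plus strand): ggcgcggagttCTTCTTCCgctctctccca
Eif2s3x (chrX:94212632-94212661, minus strand): gagcattttCCTTTTCTCTCCgagcaagat
In these sequences the run began 5 bases before the start in Eef1a1, 4 before it in Eif3f, 5 before it in Eif3l and 1 before it in Eif2s3x. The responses to set beside them are -1.23 and 0.61 for Eef1a1, -1.47 and 0.17 for Eif3f, -1.29 and -0.42 for Eif3l and -0.72 and -0.53 for Eif2s3x, in P3D8 and P3E3. The difference of responses was called for the first 3 and had an adjusted p of 0.53 for Eif2s3x.

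The E-box CACGTG, a palindrome bound by Myc and related factors, was found in 5 of the 27 promoters (18.5%), in 8.09% of all promoters and in 11.7% of those of the tested symbols. It is shown in capitals for the 3 of these members that were lower in P3D8/BMP9.
Eef2 (chr10:81176576-81176605, plus strand): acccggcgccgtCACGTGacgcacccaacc
Eif3a (chr19:60790654-60790683, minus strand): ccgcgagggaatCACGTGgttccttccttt
Eif3f (chr7:108934335-108934364, plus strand): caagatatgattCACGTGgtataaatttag
The other 2, Eif1b and Eif5a2, were not called and higher in P3D8/BMP9. TGATGNAA, searched on both strands as a form of the element bound by ATF4, was found in 1 of 27 promoters (3.7%, Eif2s3x), in 4.51% of all promoters and in 2.52% of those of the tested symbols. These letters describe the sequence and no binding was measured.

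Genes that act with the members were taken from lists of known function. Of the enzymes that make hypusine on eIF5A and diphthamide on eEF2, 4 of 9 were tested and all 4 were lower in both cartilages (38.7% and 38.1% of all symbols in P3D8 and P3E3), led by Dph2 of the diphthamide pathway (536, 465 and 576 in P3D8 monolayer, 82.8, 77.5 and 78.3 in P3D8/BMP9, 535, 548 and 534 in P3E3 monolayer and 94.2, 96.7 and 112 in P3E3/BMP9). Dph5, of the same pathway, followed with log2FC of -1.55 and -1.51. For Dph1, Dph2, Dph5 and Dohh the responses of the clones differed by -0.35, -0.30, -0.03 and -0.21, with adjusted p of 0.12 to 0.92.

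Of 5 tested termination and recycling factors, 3 were lower and 1, Pelo, higher in P3D8, where 38.7% of all symbols were lower and 37.6% higher. In P3E3 4 were lower and 1 higher, against 38.1% and 41.6%. Etf1, the release factor eRF1, fell by 1.25 on the log2 scale in both clones. Hbs1l, the partner of Pelo in ribosome rescue, was lower in P3E3 (log2FC -1.47) at values of at most 26.2. Pabpc1, the main poly(A)-binding protein and itself a TOP mRNA, was at 635, 559 and 774 in P3D8 monolayer, 114, 94.8 and 114 in P3D8/BMP9, 229.9, 259.7 and 255 in P3E3 monolayer and 112, 103 and 142 in P3E3/BMP9, so that the cartilages overlapped while the monolayers did not. Larp1, which binds the TOP start, had log2FC of -1.77 and -2.19. Of the mTORC1 list 3 of 12 were tested, and Rheb, the activator of mTORC1, fell by 0.74 in P3D8 on the log2 scale. Its log2FC of -0.27 in P3E3 (adjusted p = 0.0212) was no longer called without P3E3 monolayer replicate 1 or 2 or P3E3/BMP9 replicate 3 (-0.23 to -0.21). Mtor itself was lower in P3E3 (log2FC -0.71, adjusted p = 0.041), a call lost with a replicate block (adjusted p = 0.061), with no minimum mean (adjusted p = 0.0627), without the 4 libraries of conflicting entries (-0.58, adjusted p = 0.219) and without P3D8/BMP9 replicate 1, P3E3 monolayer replicate 2 or 3 or P3E3/BMP9 replicate 1 or 2 (-0.79 to -0.50).

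In the eIF2 stress branch, 5 of 6 tested genes were lower and 1 higher in P3D8 (38.7% and 37.6% of all symbols). In P3E3 3 were lower and 2 higher, against 38.1% and 41.6%. Ppp1r15a, a subunit of the eIF2 phosphatase, was at 3137, 3043 and 3490.3 in P3D8 monolayer, 603, 532 and 1014 in P3D8/BMP9, 6207, 7208 and 4564 in P3E3 monolayer and 2903, 2413 and 2132 in P3E3/BMP9. As for Eif4ebp1 and Eif2s2, replicate 3 of P3D8/BMP9 was the highest of its group. Trib3, a stress-induced pseudokinase, had log2FC of -1.94 in P3D8 and -0.43 in P3E3 (adjusted p = 0.0399). The P3E3 call was lost with a replicate block (adjusted p = 0.0596), with no minimum mean (adjusted p = 0.0611) and without P3E3 monolayer replicate 1 or 2 or P3E3/BMP9 replicate 2 or 3 (-0.44 to -0.35). Ddit3, the stress factor CHOP, rose in both (0.84 and 0.97). Chac1, of the same list, fell in P3D8 (log2FC -1.22) and rose in P3E3 (1.03), with a called difference of -2.26. Of the mitochondrial translation factors 3 of 9 were tested, and Gfm1 and Tsfm, both elongation factors of mitochondria, fell in both clones (-1.32 and -1.0 in P3D8, -1.10 and -0.57 in P3E3).

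Which members could be tested followed the number of transcript rows. Of 34 members with 1 row 33 were tested, and of 32 members with several rows 3 were (Eif2ak2, Eif2b1 and Eif5a2, with 2 rows each). Over all symbols the shares tested were 19.6% with 1 row and 9.80% with several. Eif4a1 and Eif4a2, the helicases of eIF4F, were at 0 in all libraries with 2 and 11 rows, as were Eif2b5, Eif2ak4, Eif2s3y, Eif4e1b and Eef1akmt1. Eif4g1, the scaffold of eIF4F, had 16 rows and a mean of 9.88, just under the minimum, and Eif4e, Eif5a and Eef1d reached at most 5.36, 4.87 and 1.93 in any library. Genes that every cell uses were thus at or near 0, so these values are no measure of their expression, and eIF4E, eIF4G, eIF4A and eIF5A could not be compared between the groups.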

How the data were processed

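Polyadenylated RNA from 12 cultures (2 clones, monolayer or cartilage, 3 independent cultures each) was sequenced as paired reads on a BGISEQ-500. The authors aligned the reads to mm10 with HISAT2, counted them per RefSeq transcript with htseq-count and scaled each library by its DESeq2 size factor, computed over all datasets of the study, cartilage of other sources included. Versions, the strand setting and the treatment of reads shared by several transcripts are not given in the sources used here. The deposited signal values are these normalized counts per transcript and library. A second deposited table holds the authors' fold changes and adjusted p-values between the cartilages and was not used.

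Rows of a symbol were summed. Every value was a whole multiple of 1 step per library (100% of values within 0.01), which gave back whole reads. Symbols with a mean of at least 10 over 12 libraries (5294) were tested with limma 3.58.1 (R 4.3.3, trended variance, two-sided) on log2(value + 1), in 1 fit of 4 group means over all 12 libraries, with Benjamini-Hochberg adjustment. Called means an adjusted p below 0.05. Fold changes on this scale understate the change of low genes. Members and gene lists were chosen with earlier results of these data known, and the ribosomal protein list was added after the fit. Genes with the largest absolute log2FC of each role (up to 4) and pathway list (2), and members with a called difference of responses, were named. Some further genes of the pathway lists were named outside this rule. edgeR 4.0.16 on the recovered reads, other scaling, filters, pseudocounts and single rows, a replicate block and leaving out libraries were the alternatives. Positions are from GRCm38. Per-kilobase levels used GENCODE lengths of the counted transcript. Of the tested members, 9 overlap another protein-coding gene (Eef1b2, Eef2kmt, Eif1ad, Eif2s2, Eif3j1, Eif3m and Eif5b on opposite strands, Eif4e3 and Eif4ebp3 on the same strand), and reads of the partners may have been counted together or lost; copies of Eif1 and Eif2s3x are annotated as pseudogenes. No batch is given in the labels. The tests were tried on simulated counts.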

Additional observations from a re-analysis of the deposited data

Results flagged for a closer look

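For 25 members the cartilage response differed between the clones by the test of the difference itself (limma, adjusted p below 0.05). The values are log2FC of P3D8/BMP9 against P3D8 monolayer minus log2FC of P3E3/BMP9 against P3E3 monolayer, so that a negative value is a deeper fall or a smaller rise in P3D8.

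Among the elongation factors the difference was -1.84 for Eef1a1, -1.73 for Eef2, -1.35 for Eef1b2 and -1.05 for Eef1g. Beside them it was -1.60 for Eef1e1, the synthetase scaffold protein, and -0.92 for the enzyme gene Eef2kmt. Among the eIF3 subunits it was -1.63 for Eif3f, -1.48 for Eif3i, -1.03 for Eif3e, -0.94 for Eif3h, -0.93 for Eif3c, -0.87 for Eif3l, -0.57 for Eif3g, -0.33 for Eif3m and -0.24 for Eif3b. Among the other initiation factors with negative values it was -2.20 for Eif4ebp1, -1.40 for Eif4b, -1.17 for Eif2s2, -0.91 for Eif1ad and -0.52 for Eif5b. Positive differences were 1.54 for Eif4e3, 0.99 for Eif5a2, 0.55 for Eif1b, 0.44 for Eif1ax and 0.41 for Eif6. Of these 5, Eif6 fell further in P3E3, Eif1b and Eif1ax fell in P3E3 and were not called in P3D8, and Eif4e3 and Eif5a2 rose more in P3D8. Each group had 3 libraries, so the test for a single stray library in a group was not run.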

How the results depend on the processing

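The counts of members called lower kept within 1.5 times their main value under each alternative run, in all 5 comparisons. With no minimum mean, which lets in members of few reads, the median log2FC of the members tested moved to -0.39 for P3D8, -0.23 for P3E3, -0.15 between the cartilages and -0.080 for the difference of responses. Under this setting 3 members were called higher in P3D8/BMP9 than in P3E3/BMP9 (Eef1d, Eif4e2 and Eif4g1, each with a mean over the 12 libraries under 10). That count was 1 (Eif2ak2) under TMM scaling, with edgeR on the recovered reads, with only the libraries compared and with a replicate block. With 1 library left out it was 0 to 1. Symbols with 1 row alone gave 2 members higher in P3D8/BMP9 than in monolayer, with medians of -1.17 for P3D8 and -0.57 for the difference. The median between the monolayers, -0.0023, took the other sign under TMM scaling (0.0049), with edgeR (0.0058) and without the 4 libraries of conflicting entries (0.016). No named gene that was called reversed its sign.

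The replicate numbers were not taken to pair the cultures: same-numbered libraries deviated together with r of -0.30 to 0.11, and the replicate block changed no other count of members by over 1.5 times. Between the monolayers, the Eif4ebp1 call (log2FC 0.66, adjusted p = 0.0307) was lost when 1 of 5 libraries was left out (0.54 to 0.71). Without the 4 libraries of conflicting entries, the fall of Eif3e in P3E3 (log2FC -0.22, adjusted p = 0.0517) and the difference of responses of Eif1b (0.53, adjusted p = 0.056) were no longer called. Of the 30 untested members 29 had several transcript rows; how reads shared by transcripts were counted is not given in the sources used here, and its part was not tested. The 3 libraries per group limit the precision of each value.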
